A study of Mus musculus with 3 samples.

Results

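The activated inflammatory neutrophils were 2597 of the 20504 cells kept from 3 single-cell RNA libraries of mouse jaw, 2231 of them in Ctrl, 285 in 1d and 81 in 7d. Neutrophils were gated as cells in which S100a8 and S100a9, which encode the paired calcium-binding proteins that fill neutrophil cytosol, made up at least 5% of the unique molecular identifiers (UMIs, tags that count each captured transcript once), with the secondary granule genes Camp, Ngp and Ltf under 1% and the primary granule genes Elane, Mpo and Prtn3 under 0.5%. A gated cell was a member where Acod1, Il1rn, Cxcl2 and Ccrl2 together had at least 2 UMIs and no fewer than Mmp8, Mmp9 and Ly6g together. Members were thus chosen by the measured UMIs of these 15 genes, so the genes of the rule are described without any test. Il1b, which also marks the group, was not used to choose it. The barcodes counted as cells had 500 or more UMIs, 250 or more genes and no more than 15% of UMIs from mitochondrial genes.

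All mice were male, wild-type and C57BL/6, aged 10 weeks. Ctrl mice had no treatment by their label, and 1d and 7d mice were killed 1 and 7 days after a 10 Gy dose to the head and neck. Jaw cells of 8 mice were pooled into each library, so every group was 1 library. There was no replicate, no test between groups was possible, and each interval in brackets is a 95% interval for counting error only. The cells had been released with collagenase, frozen and thawed before capture. Kept libraries held 8880, 5127 and 6497 cells in Ctrl, 1d and 7d. Some barcodes were kept in more than 1 library: 13 in Ctrl and 1d, 15 in Ctrl and 7d, and 9 in 1d and 7d. None of these 37 was a member in both libraries of its pair, and 10 were a member in 1 of them. The median member had 2088 UMIs in Ctrl, 2677 in 1d and 1827 in 7d, and 702, 814 and 727 genes. Summed over members the libraries held 6044770, 840168 and 204704 UMIs, so a 7d value rested on far fewer molecules than a Ctrl value.

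Neutrophils are short-lived phagocytes that leave the bone marrow with most of their granule proteins already made and then follow chemokines into tissue. Microbial and damage signals, or IL-1 itself, act through the transcription factor NF-kB to switch on Cxcl2 and Cxcl3, chemokines that call further neutrophils through the receptor Cxcr2, and Il1b, the precursor of a fever-inducing cytokine. The same program carries its own brakes. Il1rn encodes a receptor antagonist of IL-1, Nfkbia encodes the inhibitor that returns NF-kB to the cytosol, and Acod1 encodes the enzyme that makes itaconate, a metabolite that restrains inflammation. Ccrl2 encodes a receptor that binds the attractant chemerin without signalling.

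The names of the cells were checked against marker genes. The reference sets were kept cells with under 5% of UMIs from S100a8 and S100a9. B cells had at least 2 UMIs of Cd79a and Cd79b, and macrophages with C1q at least 3 of C1qa, C1qb and C1qc. Monocytes had at least 3 of Csf1r, Ccr2 and Ms4a6c, no C1q or Cd79a UMI and under 0.5% primary granule UMIs. These genes are among the markers summed below, so the levels of the reference sets partly follow from their choice. The 14 neutrophil markers summed to 183806, 202500 and 186635 counts per 1000000 UMIs (CPM) in Ctrl, 1d and 7d members, with no marker at 0, against 3563, 1887 and 1536 in B cells of the same libraries. These sums hold S100a8, S100a9, Mmp8, Mmp9 and Ly6g, which the rule used. The other 9 markers, outside the rule, summed to 41501, 45858 and 40395 in members and 1069.7, 214 and 198 in B cells, with none at 0 in members. Csf3r, the receptor of the growth factor G-CSF, stood at 641, 576 and 1060.1 CPM in members and 21.4, 9.76 and 13.8 in B cells. Retnlg, a resistin-like secreted protein of mature mouse neutrophils, reached 28141, 32647 and 26897. The 10 macrophage markers summed to 95.1, 28.6 and 171 in members, against 11775, 10258 and 19094 in macrophages with C1q, and C1qa, C1qb and C1qc were at 0 in 1d members. The 10 monocyte markers summed to 446, 377 and 943 in members, against 3116, 5739 and 5524 in monocytes. The 8 eosinophil markers summed to 3.97, 19.04 and 4.89, and Epx, the eosinophil peroxidase, was at 0 in members of every library. Red cell genes were the largest foreign signal, with 16866, 5298 and 7029.7 in members and 24678, 7566 and 21733 in B cells. The word activated set few cells apart, because the rule took 98.8%, 95.6% and 81% of all gated neutrophils in Ctrl, 1d and 7d.

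The promoters of 4 genes that the values below turn on are shown for the run of bases they share, which resembles an NF-kB site: Cxcl2 and Acod1 of the rule, Cxcl3, and Nfkbia. Each window runs from 250 bases before the start of the gene to 50 bases after it, 5′ to 3′ on the strand of the gene, from RefSeq on GRCm38.p6, the build that mm10 names. Capitals mark the 10-letter motif GGGAATTTCC, its reverse complement GGAAATTCCC, or, in Acod1, the 9-letter GGAAATTCC, which is the reverse complement of GGAATTTCC. Cxcl2 is at chr5:90903649-90903948 on the plus strand, Cxcl3 at chr5:90785851-90786150 on the plus strand, Nfkbia at chr12:55492598-55492897 on the minus strand and Acod1 at chr14:103046762-103047061 on the plus strand.
Cxcl2: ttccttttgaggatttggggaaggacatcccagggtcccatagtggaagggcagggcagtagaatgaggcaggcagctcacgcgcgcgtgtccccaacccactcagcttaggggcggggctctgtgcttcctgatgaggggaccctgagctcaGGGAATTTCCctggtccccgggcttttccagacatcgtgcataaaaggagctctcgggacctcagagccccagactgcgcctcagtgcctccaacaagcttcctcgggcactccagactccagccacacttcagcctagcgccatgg
Cxcl3: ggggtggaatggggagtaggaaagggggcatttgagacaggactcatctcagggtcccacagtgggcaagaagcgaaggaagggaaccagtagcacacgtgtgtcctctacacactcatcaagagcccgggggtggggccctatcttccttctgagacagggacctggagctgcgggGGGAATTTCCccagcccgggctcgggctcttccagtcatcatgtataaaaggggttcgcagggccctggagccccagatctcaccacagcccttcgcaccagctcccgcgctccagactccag
Nfkbia: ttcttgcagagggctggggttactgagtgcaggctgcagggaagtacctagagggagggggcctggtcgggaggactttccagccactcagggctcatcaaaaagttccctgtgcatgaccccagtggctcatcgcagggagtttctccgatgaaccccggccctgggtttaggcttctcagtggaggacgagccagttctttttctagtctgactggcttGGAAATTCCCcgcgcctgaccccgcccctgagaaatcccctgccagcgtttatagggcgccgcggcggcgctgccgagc
Acod1: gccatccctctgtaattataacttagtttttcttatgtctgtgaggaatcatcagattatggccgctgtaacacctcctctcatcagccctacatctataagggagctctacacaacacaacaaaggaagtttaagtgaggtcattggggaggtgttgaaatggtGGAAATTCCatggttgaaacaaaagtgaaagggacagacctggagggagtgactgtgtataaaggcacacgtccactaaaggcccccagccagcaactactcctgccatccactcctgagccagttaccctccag

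The capitals begin 97 bases before the start in Cxcl2, 73 in Cxcl3, 29 in Nfkbia and 85 in Acod1. Both strands were searched. The 10-letter motif was in 29 of 32851 promoter windows of this length (0.0883%), and the 9-letter motif, which lies inside it, in 104 (0.317%). Tnfaip3 and Icam1 also hold the 9-letter motif, and the windows of Il1b, Il1rn, Ccrl2, Ccl3, Nlrp3, Tnf, Sod2 and Wfdc17 hold neither. The 10 letters are the longest run that the Cxcl2, Cxcl3 and Nfkbia windows share on either strand, and the 9 letters the longest once Acod1 is added, so these genes hold them by construction. The genes were chosen with the results and the windows in view, and a match describes letters only. By the annotation of that build the 5 markers lie in full on these spans: Acod1 (ENSMUSG00000022126) at chr14:103046977-103056573, Il1rn (ENSMUSG00000026981) at chr2:24336853-24351494, Cxcl2 (ENSMUSG00000058427) at chr5:90903871-90905938, Ccrl2 (ENSMUSG00000043953) at chr9:111054486-111057519 and Il1b (ENSMUSG00000027398) at chr2:129364570-129371139. Reads of this assay come from the 3′ ends of transcripts and were counted per gene.

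Activated neutrophils were most of the neutrophils in Ctrl and a minority of them in both irradiated libraries. They made up 25.1% (24.2 to 26.04) of kept cells in Ctrl, 5.56% (4.95 to 6.22) in 1d and 1.25% (0.991 to 1.55) in 7d, and the intervals of the 3 libraries did not overlap. A second set of neutrophils, called granule neutrophils here, had the same S100a8 and S100a9 minimum and primary granule limit but at least 1% of UMIs from Camp, Ngp and Ltf, the secondary granule genes of younger neutrophils. Granule neutrophils were 5.12% (4.67 to 5.603) of kept cells in Ctrl, 26.9% (25.7 to 28.2) in 1d and 6.86% (6.26 to 7.51) in 7d. Within gated and granule neutrophils together, members were 82.3% (80.8 to 83.7) in Ctrl, 16.97% (15.2 to 18.9) in 1d and 14.8% (11.96 to 18.1) in 7d. The last 2 intervals overlapped. With each library made from 1 pool, a difference between pools and an effect of irradiation cannot be told apart.

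**Figure D1:**
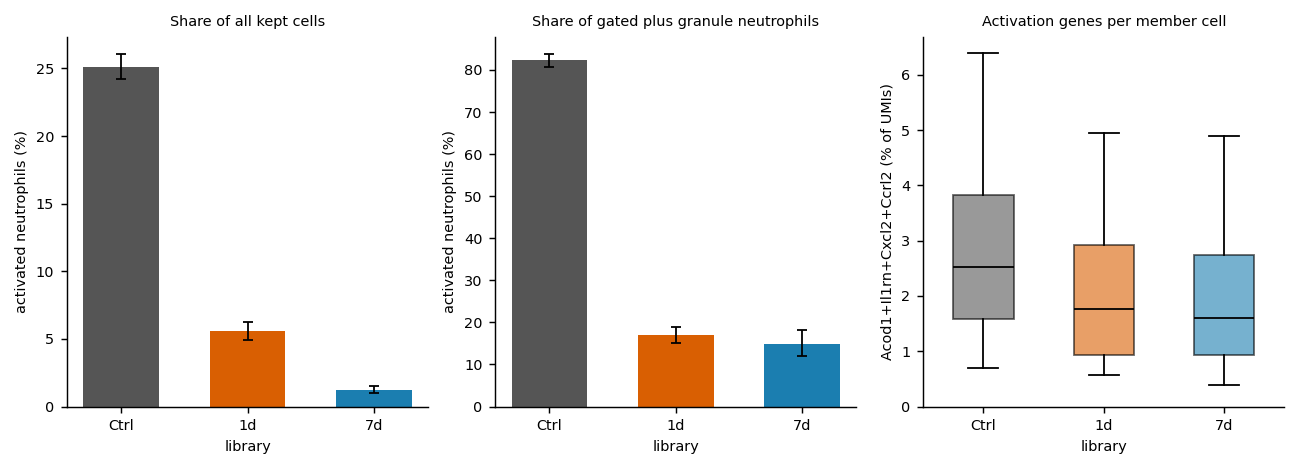
Activated inflammatory neutrophils in the Ctrl, 1d and 7d libraries as percent of kept cells (left) and of gated plus granule neutrophils (middle), with 95% Clopper-Pearson intervals that cover counting error only, and the percent of each member's UMIs from Acod1, Il1rn, Cxcl2 and Ccrl2 (right; box, quartiles and median; whiskers, 5th to 95th percentile of cells). Members are 25.1%, 5.56% and 1.25% of kept cells, and the median share of the 4 genes is 2.52%, 1.76% and 1.61%.

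Few cells lay near the activation thresholds of the rule. Of the gated neutrophils, 4, 2 and 2 in Ctrl, 1d and 7d had no UMI of the 4 activation genes, 6, 4 and 1 had 1 UMI, 1, 0 and 2 had 2 UMIs, and 1, 1 and 1 had 3 UMIs. By contrast 2204, 280 and 80 gated cells had at least 10. The comparison with Mmp8, Mmp9 and Ly6g kept out 16, 7 and 16 cells that had 2 or more activation UMIs, of which 7, 3 and 3 missed by at most 3 UMIs, and 9, 5 and 3 members passed by as little. The S100 limit ran through a continuum. Members with 5 to 6% of UMIs from S100a8 and S100a9 numbered 135, 13 and 8, and cells with 4 to 5% numbered 169, 10 and 14. In the Ctrl cells just outside that limit Il1b was at 3898 CPM, and in the Ctrl members just inside it at 3771.

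Cxcl2 was the most abundant of the rule's genes. It had 20397, 15066 and 13112 CPM in Ctrl, 1d and 7d members, 3997, 1097 and 950.3 in granule neutrophils and 749, 118 and 60.1 in B cells, which should lack it. Acod1 had 2600.1, 2047 and 1905 CPM in members, 467, 173 and 104 in granule neutrophils and 98.1, 8.26 and 3.22 in B cells. For both genes members stood highest of all cell sets in every library, and their level was lower in 1d and in 7d than in Ctrl. Ccrl2 had 554, 334 and 840.2 CPM in members and 93.4, 31.1 and 27.4 in granule neutrophils, so its highest member level was in 7d. Il1rn had 1941, 1683 and 518 in members, 483, 133 and 64.4 in granule neutrophils and 1186, 943 and 333 in macrophages with C1q. These macrophages came closest to members in Il1rn, and in both sets the 7d level was the lowest. Il1b, outside the rule, had 4349, 2447 and 2452 in members, 584, 129 and 102 in granule neutrophils and 221, 33.7 and 6.45 in B cells.

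**Figure D2:**
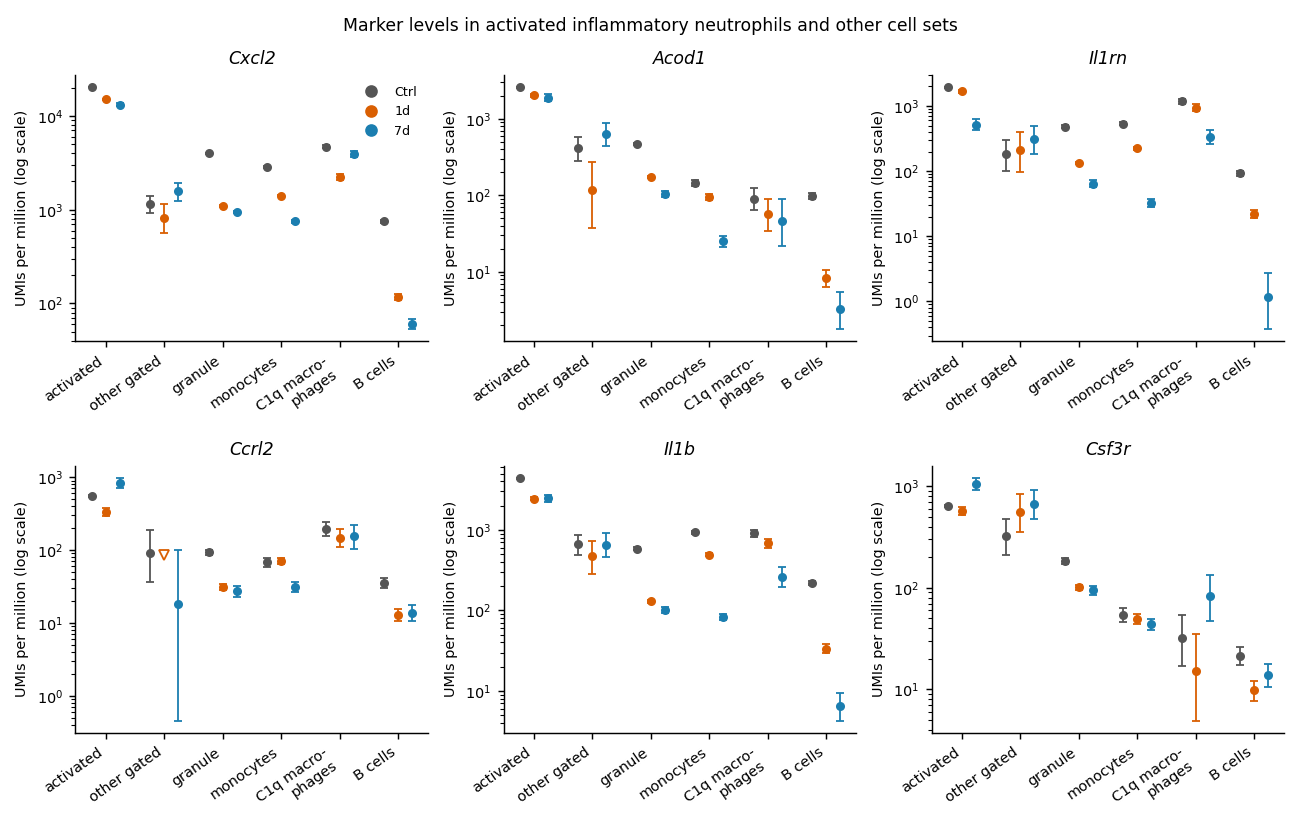
CPM (log scale) of the 5 marker genes and Csf3r in activated neutrophils and in the other cell sets of the Ctrl, 1d and 7d libraries, from summed UMIs. Bars are 95% Poisson intervals for counting error, and an open triangle marks the upper end of that interval where no UMI was found. Cxcl2 and Acod1 are highest in activated neutrophils in each library, Cxcl2 at 20397, 15066 and 13112, and the B cell level of Cxcl2 is highest in Ctrl at 749.

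Members varied widely in how much of their RNA came from the 4 activation genes. The summed UMIs of Acod1, Il1rn, Cxcl2 and Ccrl2 ran between 4 and 549 per member in Ctrl, between 5 and 232 in 1d and between 5 and 147 in 7d, with medians of 55, 44 and 31. As a share of the member's UMIs the medians were 2.52%, 1.76% and 1.61%. With each cell thinned to 1000 UMIs, which left out 106, 3 and 5 shallower members, the medians were 25, 17 and 16.5 activation UMIs, the same order as without thinning. At that depth 99.9%, 100% and 100% of members had at least 2 activation UMIs, against 74.3%, 30.0% and 26.5% of granule neutrophils and 6.15%, 1.01% and 0.446% of B cells. Unthinned, the shares were 100% of members in each library, 93.0%, 66.8% and 62.1% of granule neutrophils and 8.95%, 4.04% and 4.71% of B cells. The rule itself asks for at least 2 such UMIs. The unthinned member share is thus 100% by construction, and the thinned share also rests on that choice. The median depths before thinning were 2088, 2677 and 1827 UMIs in members, 8556, 7421 and 8673 in granule neutrophils and 2024, 2728 and 2542 in B cells.

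Cxcl2, Il1b and Acod1 were each found in most members. Ccrl2 was not, with 47.1, 40.7 and 46.9% of Ctrl, 1d and 7d members at full depth. Il1rn was in 85.8, 82.1 and 53.1% at full depth. All of these but Il1b are genes of the rule. In thinned cells Cxcl2 was detected in 99.8, 98.9 and 100% of Ctrl, 1d and 7d members, against 11.9, 2.97 and 2.53% of B cells. Il1b was detected in 82.7, 71.3 and 71.1% of members and 5.62, 0.631 and 0.594% of B cells. Acod1 was detected in 82.96, 73.05 and 71.1% of members and 3.73, 0.379 and 0% of B cells. Without thinning the member shares of Cxcl2, Il1b and Acod1 were 100, 99.6 and 100%, 89.6, 84.9 and 86.4%, and 94.9, 89.8 and 87.7%. All 4 rule genes together were seen in 21.4%, 13.5% and 15.8% of thinned members and in 42.0%, 32.6% and 25.9% of members at full depth. Ccl3 and Ccl4, neighbouring chemokine genes whose products attract monocytes and lymphocytes, tended to be found in the same members: Ccl4 was detected in 52.97%, 52.0% and 37.8% of thinned members with Ccl3 and in 37.5%, 28.4% and 15.4% of those without. Il1b and its antagonist Il1rn showed no such common tendency, with Il1rn in 71.0%, 60.2% and 38.9% of members with Il1b and in 63.9%, 61.7% and 50% of those without.

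Members held the greater part of several inflammatory transcripts of the Ctrl library, and a smaller part in both irradiated libraries. They carried 16.2%, 1.93% and 0.456% of all UMIs of kept cells in Ctrl, 1d and 7d. Of all Cxcl2 UMIs they held 64.1, 28.7 and 13.6%, of Acod1 65.4, 29.8 and 17.2% and of Il1b 62.6, 22.4 and 18.6%. Cxcl3 UMIs were 63.3, 27.5 and 2.5% in members. Cxcr2, the receptor for these chemokines, had 69.4, 21.7 and 10.1% of its UMIs in members, and Csf3r 64.7, 16.6 and 10.9%. Nlrp3, the sensor that starts the inflammasome, had 60.2, 21.8 and 8.27%. Ptgs2, the inducible cyclooxygenase, was found mostly in other cells, with 14.01, 3.32 and 3.38% in members.

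The gated neutrophils outside the rule were 26 cells in Ctrl, 13 in 1d and 19 in 7d, so comparisons with them rest on little RNA. A gene counts as past 2-fold here and below where the ratio of CPM was at least 2 or at most 0.5 and its interval excluded 1. In members against these other gated neutrophils, 225 genes were past 2-fold higher (3.11%) and 383 past 2-fold lower (5.29%), or 8.39% either way, of 7244 with at least 20 UMIs in Ctrl. In 1d, 248 genes were past 2-fold higher (7.85%) and 182 past 2-fold lower (5.76%), or 13.6% either way, of 3161 with at least 20 UMIs. In 7d, 157 genes were past 2-fold higher (10.1%) and 40 past 2-fold lower (2.58%), or 12.7% either way, of 1548 with at least 20 UMIs. With factors by the trimmed mean of M values (TMM), which shift every log2 ratio by 0.42, −0.11 and −0.20 in Ctrl, 1d and 7d, the counts higher and lower were 473 and 172, 208 and 219, and 109 and 78. The rule chose its members inside this contrast, and these counts and the values of single genes and lists that follow from it are a description.

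Outside the rule's genes, Wfdc17, Il1b, Nlrp3 and Nfkbia had ratios above 1 to the other gated neutrophils in each library. Wfdc17, a small secreted protein with a whey acidic fold, had 1553, 657 and 1021 CPM in Ctrl, 1d and 7d members, against 245, 46.7 and 72.7 in other gated cells, with ratios of 6.34 (4.05 to 10.5), 14.1 (3.88 to 116) and 14.03 (5.4 to 51.99). The 1d ratio of Wfdc17 rests on 2 UMIs in other gated cells and its direction turned with thinning, and the 7d ratio was 1.96 without the Mmp8, Mmp9 and Ly6g comparison. Nlrp3 was 9.04, 5.21 and 4.67 times as high. Il1b was 6.61 (5.03 to 8.88), 5.24 (3.38 to 8.597) and 3.75 (2.67 to 5.41) times as high, the last with 36 UMIs in the other cells. Nfkbia, the NF-kB inhibitor, had ratios of 5.22, 3.48 and 3.57, and it stayed past 2-fold under every alternative tried. The same held for Rnf149, a ubiquitin ligase, at 3.98, 9.01 and 2.69, and for Pim1, a survival kinase, at 3.804, 3.28 and 2.57. Sod2, the mitochondrial superoxide dismutase, had 4221, 437 and 26 UMIs in members and 4, 1 and 0 in the other cells. Of 39, 35 and 24 NF-kB targets and feedback genes with enough UMIs, 19, 12 and 14 were past 2-fold higher and 0 lower. Their median log2 ratios were 1.14, 1.26 and 1.399, beside −0.44, 0.14 and 0.13 over all genes, and 1.07, 0.82 and 1.36, beside −0.88, −0.01 and 0.18, with genes at 0 on 1 side placed at the limit of 3 UMIs.

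The named genes lower in members than in the other gated neutrophils included Anxa1, Adpgk, Lyz2 and Pglyrp1. Anxa1, the anti-inflammatory protein annexin A1, had 161, 215 and 401 CPM in members, against 968, 981 and 891 in other gated cells. Adpgk, a glucokinase that uses ADP, had ratios of 0.211 (0.156 to 0.2904), 0.214 (0.144 to 0.327) and 0.253 (0.153 to 0.4196). Both lost their 7d difference without the comparison with Mmp8, Mmp9 and Ly6g, at log2 ratios of 0.26 for Anxa1 and 0.060 for Adpgk. Lyz2, lysozyme, had ratios of 0.249, 0.287 and 0.573, and Pglyrp1, a granule protein that binds bacterial cell walls, 0.458, 0.3401 and 0.541; neither was past 2-fold in 7d. Lcn2, which binds bacterial iron carriers, was past 2-fold in Ctrl alone of the 3 libraries, at 0.485, 0.632 and 0.715. Ckap4, a protein of the endoplasmic reticulum, was lower by ratios of 0.2999, 0.127 and 0.41.

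Members were also set against the granule neutrophils. In Ctrl, 991 genes were past 2-fold higher (10.9%) and 2331 past 2-fold lower (25.5%), or 36.4% either way, of 9130 with at least 20 UMIs. In 1d, 1134 genes were past 2-fold higher (11.8%) and 2111 past 2-fold lower (22.0%), or 33.9% either way, of 9576 with at least 20 UMIs, and in 7d, 971 genes were past 2-fold higher (12.1%) and 937 past 2-fold lower (11.7%), or 23.7% either way, of 8035 with at least 20 UMIs. TMM shifts the log2 ratios by 0.29, 0.32 and 0.07 in Ctrl, 1d and 7d, and gave 1454 higher and 1691 lower, 1535 and 1473, and 1024 and 854. The rule separates these sets by Camp, Ngp and Ltf and by the activation genes, and members had medians of 2088, 2677 and 1827 UMIs, against 8556, 7421 and 8673 in granule neutrophils, and the values are a description. Cells holding phagocyte RNA had at least 2 UMIs over the 7 genes C1qa, C1qb, C1qc, Csf1r, Ccr2, Ms4a6c and Ly6c2. They were 19.6%, 23.9% and 27.2% of members and 76.9%, 84.1% and 93.0% of granule neutrophils. Ly6c2, also on the granule and secretory list, was detected in 35.4%, 42.5% and 35.8% of members and 86.2%, 93.3% and 96.6% of granule neutrophils. Csf1r was in 6.37%, 2.9% and 3.59% of granule neutrophils, and the C1q genes, Ccr2 and Ms4a6c in at most 3.81%. Most granule neutrophils in this count thus entered it through Ly6c2. The part of these cells in the differences was not tested beyond leaving them out.

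The named genes higher in members than in granule neutrophils were led by Wfdc17. Wfdc17 stood at 1553, 657 and 1021 CPM in members and 117, 29.5 and 23.9 in granule neutrophils, ratios of 13.3 (12.2 to 14.4), 22.3 (19.6 to 25.4) and 42.7 (33.7 to 54.4). Ifitm1, an interferon-induced membrane protein, had ratios of 9.02, 26.7 and 29.4. Il1b had ratios of 7.44, 18.9 and 24.1 and Nlrp3 of 5.96, 19.6 and 30.9. Cyp4f18, which inactivates the attractant leukotriene B4, had 1105, 1249 and 1373 CPM in members and 157, 51.4 and 65.3 in granule neutrophils. Asprv1, a protease of retroviral origin, had ratios of 6.03, 11.4 and 11.1. Slc15a3, an endolysosomal transporter of histidine and small peptides, had 6.11, 13.6 and 20.1. Atf3, a stress-induced transcription factor, had 5.43, 10.2 and 13.7. Cstdc4 and Stfa2l1, cysteine protease inhibitors of the stefin A family, had 9.38, 21.3 and 20.7 and 6.47, 18.4 and 9.07; their near-identical neighbours make counts per stefin gene uncertain, and Sirpb1b, at 9.33, 26.4 and 76.4, has close relatives too. In each library every one of these genes was past 2-fold, and the ratios were higher in 1d and 7d than in Ctrl.

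The named genes lower in members included Chil3, Fcnb, Serpinb1a and several proliferation genes. Chil3, a chitinase-like secreted protein, had 90, 46.4 and 83.05 CPM in members and 6883, 6652 and 7181 in granule neutrophils. Fcnb, the lectin ficolin B, had 4, 2 and 0 UMIs in members, against 1072, 6673 and 3013 in granule neutrophils. Serpinb1a, which inhibits the neutrophil serine proteases, had ratios of 0.0359, 0.0517 and 0.0329. The proliferation genes Mki67, Top2a and Ube2c had 42, 14 and 18 UMIs in the 2231 Ctrl members, against 813, 445 and 881 in the 455 granule neutrophils of Ctrl. In 7d members Mki67 had no UMI, which with a limit of 3 UMIs gives a ratio of at most 0.05298 to granule neutrophils. Of the NF-kB list 26 of 40, 25 of 38 and 22 of 35 genes were past 2-fold higher in members and 0 lower. Of the interferon list 23 of 40, 26 of 38 and 14 of 28 were higher and 2, 1 and 1 lower.

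Among members themselves, cells were ranked in each library by the share of their UMIs that came from the 4 activation genes and split in tertiles. Because the rule's genes made the ranking, totals here leave them out and the values are a description. The lowest, middle and highest tertiles held 743, 745 and 743 cells in Ctrl, 95 each in 1d and 27 each in 7d, and their median UMIs were 2601, 2106 and 1784 in Ctrl, 3005, 2650 and 2369 in 1d and 2647, 1701 and 1481 in 7d. In the highest against the lowest tertile, 152 genes were past 2-fold higher (2.36%) and 1491 past 2-fold lower (23.2%), or 25.5% either way, of 6439 with at least 20 UMIs in Ctrl. In 1d, 117 genes were past 2-fold higher (4.73%) and 271 past 2-fold lower (11.0%), or 15.7% either way, of 2471 with at least 20 UMIs, and in 7d, 113 genes were past 2-fold higher (11.2%) and 124 past 2-fold lower (12.3%), or 23.5% either way, of 1007 with at least 20 UMIs. TMM shifts the log2 ratios by 0.40, 0.15 and −0.03 and gave 447 higher and 860 lower in Ctrl, 180 and 197 in 1d, and 111 and 133 in 7d. Without the cells marked as doublets the genes past 2-fold either way numbered 510 in Ctrl, 223 in 1d and 148 in 7d, against 1643, 388 and 237 with them. RNA of antigen-presenting cells moved with the ranking in Ctrl. Cd74, the invariant chain of antigen presentation, had 837, 354 and 111 CPM over the lowest, middle and highest tertile in Ctrl, and Ccr7 and Cd83, genes of mature dendritic cells, had 64.5, 22.2 and 4.65, and 93.2, 21.6 and 10.9. Beyond leaving out those cells, its part in the tertile ratios was not tested.

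Nlrp3, Nfkbia and Tnfaip3 were higher with each step up in activation share in all 3 libraries. Nlrp3 had 808, 1689 and 3628 CPM over the lowest, middle and highest tertile in Ctrl, 507, 921 and 2408 in 1d and 618, 1451 and 3504 in 7d. Nfkbia had 1697, 3272 and 5987 in Ctrl, 1545, 2365 and 4546 in 1d and 1557, 2745 and 4399 in 7d. The highest-to-lowest ratios were 4.49 (4.24 to 4.75), 4.75 (3.91 to 5.79) and 5.67 (4.07 to 8.01) for Nlrp3 and 3.53, 2.94 and 2.83 for Nfkbia. Tnfaip3, the ubiquitin-editing enzyme A20 that damps NF-kB, had ratios of 3.46, 5.52 and 2.99, and Nfkbiz, a nuclear partner of NF-kB, 4.12, 2.1 and 4.03. Ccl3 had ratios of 2.98, 4.73 and 7.03 and Ppp1r15a, which reverses the block on translation in stressed cells, 2.85, 3.33 and 4.04. Il1b had ratios of 2.97, 1.901 and 2.28 and was not past 2-fold in 1d. Slc7a11, which imports cystine, had 2.03, 2.08 and 3.16, within 2-fold under 6 alternatives in Ctrl and 5 in 1d. Of 39, 33 and 19 NF-kB list genes, 17, 8 and 12 were past 2-fold higher and 2, 0 and 0 lower. Median log2 ratios of that list were 0.87, 0.53 and 1.497, beside −0.42, −0.15 and 0.01 over all genes.

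**Figure D3:**
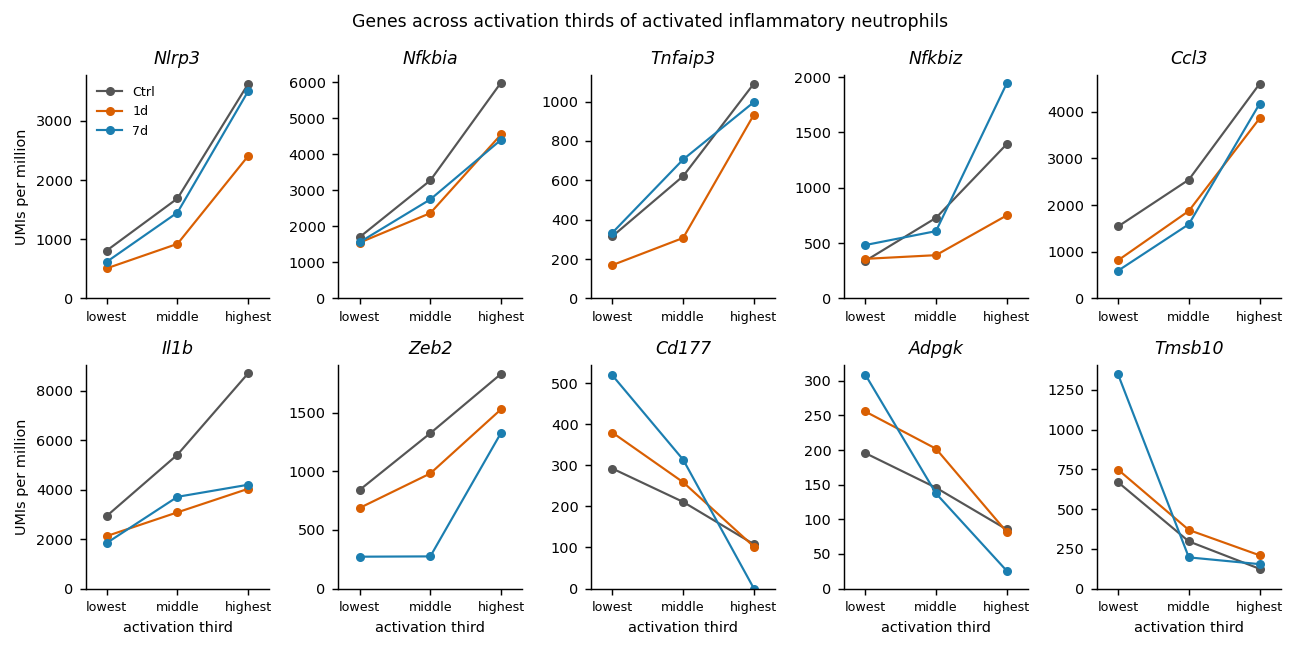
CPM (rule genes left out of the total) of 10 genes over members in the lowest, middle and highest tertile by share of UMIs from the 4 activation genes, 1 line for each of the Ctrl, 1d and 7d libraries. Nlrp3, Nfkbia and Tnfaip3 are higher in each step up in every library, and Cd177 and Adpgk lower, with Cd177 at 519, 314 and 0 over the tertiles of 7d.

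Cd177, Tmsb10 and several chaperones ran the other way. Cd177, a surface protein of circulating neutrophils, had 292, 211 and 108 CPM over the lowest, middle and highest tertile in Ctrl and 379.7, 259 and 102 in 1d. Tmsb10, an actin-binding thymosin, had highest-to-lowest ratios of 0.186, 0.2797 and 0.114. Ifitm6, another interferon-induced membrane protein, had 0.431, 0.408 and 0.143. As above, Cd74 of antigen-presenting cells was also lower with each step in Ctrl. The chaperones Hsp90ab1, Hsp90aa1 and Hspa8 had Ctrl ratios of 0.267, 0.414 and 0.376. Without cells holding phagocyte RNA the 7d log2 ratios turned to 0.077 for Hsp90aa1, 0.13 for Hspa8 and 0.51 for Naca, a subunit of the complex that guards nascent proteins.

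At day 1 after irradiation the members had lower levels of 8 of 25 p53 targets than Ctrl members, and of Ifi27l2a, Icam1, Tnf and Cxcl3. Of 7450 genes with at least 20 UMIs, 125 were past 2-fold higher in 1d (1.68%) and 212 past 2-fold lower (2.85%), or 4.52% either way. The median log2 ratio of all genes was 0.01. The shares of 1.68% and 2.85% are the background for each list count in 1d members below. Because Ctrl and 1d are 1 library each, these counts compare 2 libraries. In granule neutrophils the same comparison put 906 of 10102 genes higher (8.97%) and 882 lower (8.73%), 17.7% either way. The other gated neutrophils gave 36 higher (5.03%) and 104 lower (14.5%), 19.6% either way, of 716 genes. Red cell genes, a sign of free RNA, summed to 5298 CPM in 1d members, against 16866 in Ctrl members, and their part in these ratios was not tested except by subtracting 5% free RNA.

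Of the cytokine and chemokine genes, Tnf, Cxcl3, Ccl5 and Ccl9 were past 2-fold lower in 1d members. Il1b had 2447 CPM in 1d members, against 4349 in Ctrl members, a ratio of 0.563 (0.538 to 0.589) that is not past 2-fold. Tnf, the cytokine tumour necrosis factor, had 73 UMIs in 1d members, against 1273 in Ctrl members, a ratio of 0.413 (0.321 to 0.523). Cxcl3 had 717 CPM in 1d members, against 1467 in Ctrl members, a ratio of 0.489 (0.449 to 0.531), within 2-fold under 2 alternatives. Cxcl2, of the rule, had 15066 CPM in 1d members, against 20397 in Ctrl members. Ccl4 was level, with 2242 CPM in 1d members, against 2229 in Ctrl members. Of 16 IL-1 family and inflammasome genes 0 were past 2-fold higher and 0 past 2-fold lower, with a median log2 ratio of −0.29. Of 11 chemokines 2 were past 2-fold higher and 3 past 2-fold lower, with a median of 0.01. The 3 lower were Cxcl3, Ccl5 at 0.443 (0.286 to 0.659) and Ccl9 at 0.444 (0.289 to 0.654). Of the 26 UMIs of Ccl5 in 1d members, 96.2% were in 1 cell. The 2 higher were Cxcl1 at 2.102 (1.303 to 3.28) and Cxcl10 at 2.15 (1.23 to 3.58), with 57.7% and 55% of their 1d UMIs in 1 cell. Over all lists, 8 of the 10 genes past 2-fold higher in 1d had more than 20% of their 1d UMIs in 1 cell. Of 39 NF-kB targets and feedback genes 0 were past 2-fold higher and 2 past 2-fold lower: Tnf and Icam1, the ligand of leukocyte integrins, which had 37 UMIs in 1d members, against 945 in Ctrl members, a ratio of 0.282 (0.197 to 0.391). The NF-kB median was −0.25 in members, beside −0.71 in granule neutrophils. The other gated neutrophils had 1 of 9 higher and 1 lower, with a median of −0.12.

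Among receptors and adhesion molecules, 1 of 22 was past 2-fold higher, Ackr3, a scavenger of the chemokine Cxcl12, and 5 were lower. Ackr3, named after its value was seen, had 8 UMIs in 1d members, against 17 in Ctrl members, a ratio of 3.39 (1.26 to 8.28), and 87.5% of the 1d UMIs and 52.9% of the Ctrl UMIs were in 1 cell. Cxcr2 itself had 532 CPM in 1d members, against 676 in Ctrl members, a ratio of 0.787. Itgax, the integrin CD11c, had 22 UMIs in 1d members, against 426 in Ctrl members, a ratio of 0.372 (0.2304 to 0.57). Ltb4r1, the leukotriene B4 receptor, went the other way with 57 UMIs in 1d members, against 202 in Ctrl members, a ratio of 2.03 (1.49 to 2.74), within 2-fold under 5 alternatives. Of the 30 pathogen and damage sensors, which include it, 1 was past 2-fold higher and 1 past 2-fold lower; the lower gene was Nod1, a sensor of bacterial cell wall, at 0.297 (0.0792 to 0.784).

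The p53 list holds targets of the transcription factor that responds to DNA damage, and the genes past 2-fold were all lower in 1d. Ccng1, cyclin G1, had 14 UMIs in 1d members, against 805 in Ctrl members, a ratio of 0.125 (0.0681 to 0.211). Bax, which opens mitochondria in apoptosis, had 22 UMIs in 1d members, against 684 in Ctrl members, a ratio of 0.231 (0.144 to 0.353). Mdm2, the ubiquitin ligase that destroys p53, had 129.7 CPM in 1d members, against 409 in Ctrl members, a ratio of 0.317 (0.259 to 0.384). Bbc3, a trigger of apoptosis known as PUMA, had 4 UMIs in 1d members, against 189 in Ctrl members, a ratio of 0.152 (0.0411 to 0.396). Cdkn1a, the cell-cycle inhibitor p21, was not past 2-fold at 0.508 (0.447 to 0.576). Of 25 p53 targets 0 were past 2-fold higher and 8 past 2-fold lower, and the median log2 ratio was −0.76, or −0.44 with the 2 genes at 0 in 1d placed at the limit of 3 UMIs. In granule neutrophils 0 of 32 were higher and 19 lower, with a median of −1.497, and the other gated neutrophils had 0 of 7 higher and 4 lower, with a median of −1.98. The granule ratios of Ccng1, Bax and Mdm2 were 0.0788, 0.201 and 0.276. In B cells Ccng1 was at 26.5 CPM in 1d and 48.6 in Ctrl, and Bax at 118 and 157.

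More interferon genes were lower than higher. Ifi27l2a, an interferon-induced mitochondrial protein, had 167 UMIs in 1d members, against 5716 in Ctrl members, a ratio of 0.2102 (0.179 to 0.245). Ifitm1 had 593 CPM in 1d members, against 1459 in Ctrl members, a ratio of 0.406 (0.3703 to 0.445). Of 40 interferon genes 2 were past 2-fold higher and 7 past 2-fold lower, with a median log2 ratio of −0.29, beside −0.94 in granule neutrophils, where 0 of 38 were higher and 18 lower. The other gated neutrophils had 1 of 8 higher and 1 lower, with a median of −0.28. The 2 higher in members, Cmpk2 and Cxcl10, had 25% and 55% of their 1d UMIs in 1 cell. Isg15, a ubiquitin-like modifier, was not past 2-fold at 0.578 (0.474 to 0.7004). Of the secretory genes, Wfdc17 had 657 CPM in 1d members, against 1553 in Ctrl members, a ratio of 0.423 (0.388 to 0.461), within 2-fold under 1 alternative. Wfdc17 also was lower in granule neutrophils, at 0.252.

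The genes named as higher in 1d were found in at least 10% of 1d members, had no more than 20% of their 1d UMIs in 1 cell and were ranked by the nearer end of their interval. Krt83, a hair keratin gene that was among the named genes by rule, had 334 UMIs in 1d members, against 1094 in Ctrl members, a ratio of 2.197 (1.94 to 2.49), against 1.07 in granule neutrophils. Pdcd6, a calcium-binding protein of membrane repair, had a ratio of 2.05 (1.86 to 2.26), against 0.695 in granule neutrophils, and was within 2-fold under 3 alternatives. Hdac5, a histone deacetylase, had 80 UMIs in 1d members, against 254 in Ctrl members, a ratio of 2.27 (1.74 to 2.92), with 0.516 in granule neutrophils. Eif4ebp1, which holds back the cap-binding protein of translation, had 2.05 (1.52 to 2.74), and Eif4e, that cap-binding protein, had 1.81 (1.47 to 2.21) and was not past 2-fold. Mospd2, an endoplasmic reticulum contact protein, had 2.07 (1.47 to 2.87), within 2-fold under 3 alternatives. Cks2, Arhgap31 and Etnk1 had 1.75, 1.86 and 1.92 and were not past 2-fold. Prkd3, a protein kinase, was the 1 lower gene of the 10 named with no lower value in granule neutrophils, at 0.218 (0.124 to 0.357) in members against 1.12. Of 32 glycolysis and hypoxia genes 1 was past 2-fold higher and 0 past 2-fold lower, with a median log2 ratio of 0.27; the higher gene was Ndrg1, a hypoxia-induced protein, at 2.23 (1.702 to 2.898), with 27.6% of its 1d UMIs in 1 cell. Gapdh and Slc2a3, a glycolytic enzyme and a glucose transporter, had ratios of 1.43 (1.36 to 1.505) and 1.62 (1.46 to 1.81), neither past 2-fold.

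**Figure D4:**
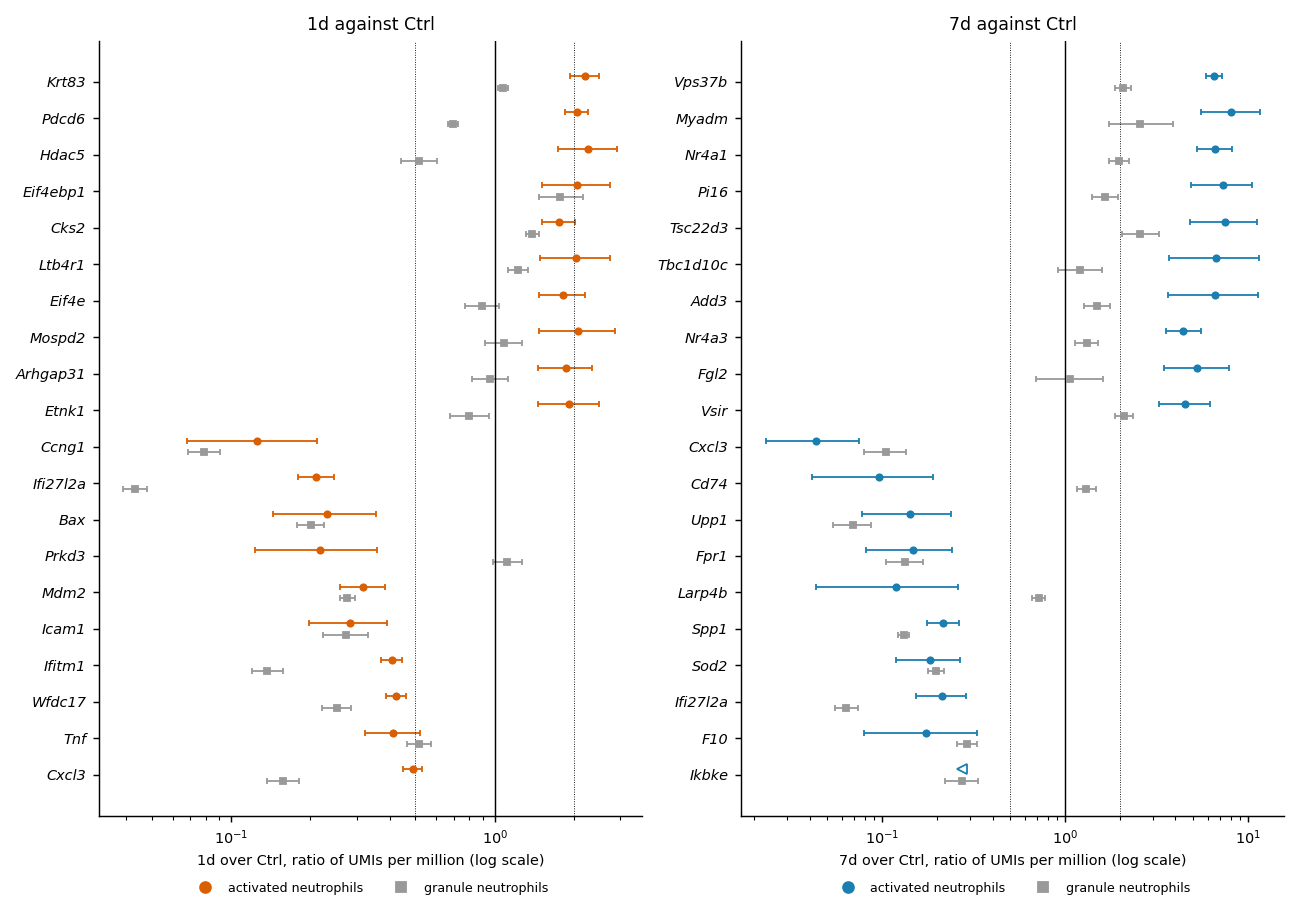
Ratio of CPM (log scale) for the 20 genes named in each comparison, 1d over Ctrl (left) and 7d over Ctrl (right), in activated neutrophils (coloured circles) and granule neutrophils (grey squares); bars are 95% counting intervals, dotted lines mark 2-fold, and the open triangle is the limit for Ikbke, which had 0 UMIs in 7d. Vps37b at 6.47 and Nr4a1 at 6.59 lie above granule values of 2.06 and 1.96 (the other gated neutrophils, not drawn, had 4.51 (2.69 to 7.87) and 1.97 (0.815 to 4.97)), while Ccng1, Mdm2 and Icam1 lie close to theirs.

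At day 7 the 81 members had less Cxcl3, Fpr1 and Sod2 and more Il1r2, Vps37b and Nr4a1 than Ctrl members. Of 7291 genes, 591 were past 2-fold higher in 7d (8.11%) and 217 lower (2.98%), or 11.1% either way. The shares of 8.11% and 2.98% are the background for each list count in 7d members below. TMM shifts each log2 ratio by −0.27, about the median of all genes (0.27), and gave 345 higher and 381 lower, so the balance of higher and lower depended on scaling. In granule neutrophils 1752 of 9283 genes were higher (18.9%) and 893 lower (9.62%), 28.5% either way, and in the other gated neutrophils 102 (12.0%) and 98 (11.5%), 23.6% either way, of 849. Endothelial markers summed to 147 CPM in 7d members, against 4.30 in Ctrl members, with Kdr and Emcn at 0 in 7d, and macrophage markers to 171, against 95.1; their part in these ratios was not tested.

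The chemokine and cytokine genes differed from one another in their 7d ratios. Cxcl3 had 13 UMIs in 7d members, against 8865 in Ctrl members, which is 63.5 CPM in 7d members, against 1467 in Ctrl members, a ratio of 0.0433 (0.02305 to 0.0741). Cxcl2, a gene of the rule given as a description, had 13112 CPM in 7d members, against 20397 in Ctrl members, a ratio of 0.643. In granule neutrophils the 2 ratios were 0.104 and 0.238. Il1b had 2452 CPM in 7d members, against 4349 in Ctrl members, a ratio of 0.564 (0.515 to 0.616), and its antagonist Il1rn, a gene of the rule given as a description, had 518 CPM in 7d members, against 1941 in Ctrl members, a ratio of 0.267. Il1r2, the decoy receptor that soaks up IL-1, had 2589 CPM in 7d members, against 856 in Ctrl members, a ratio of 3.02 (2.76 to 3.31), against 2.42 (1.71 to 3.46) in the other gated neutrophils and 0.491 in granule neutrophils. Ccl4 had 1021 CPM in 7d members, against 2229 in Ctrl members, a ratio of 0.458 (0.398 to 0.525), and Ccl3 0.646 (0.573 to 0.725). Ccl5 had a ratio of 3.64, but all 52 of its 7d UMIs were in 1 cell. Of 16 IL-1 family and inflammasome genes 1 was past 2-fold higher and 5 past 2-fold lower. Their median log2 ratio was −1.12, or −0.25 with the 5 genes at 0 in 7d placed at the limit of 3 UMIs.

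The receptor and adhesion genes past 2-fold in 7d members were few and went both ways. Fpr1, the receptor for bacterial formyl peptides, had 15 UMIs in 7d members, against 3027 in Ctrl members, a ratio of 0.146 (0.0818 to 0.242). Cxcr2 had 313 CPM in 7d members, against 676 in Ctrl members, a ratio of 0.463 (0.356 to 0.592). Cxcr4, which returns ageing neutrophils to the marrow, had 1499.7 CPM in 7d members, against 578 in Ctrl members, a ratio of 2.595 (2.302 to 2.92). Itgal, the integrin chain CD11a, had a ratio of 3.02 (2.33 to 3.85) and Selplg, the selectin ligand PSGL-1, 2.14 (1.71 to 2.65). Csf3r had 1060.1 CPM in 7d members, against 641 in Ctrl members, a ratio of 1.65 (1.44 to 1.896) that is not past 2-fold. Of 21 receptor and adhesion genes 3 were past 2-fold higher and 2 past 2-fold lower, beside 8.11% and 2.98% of all genes. With TMM the counts over all genes were 345 higher and 381 lower.

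Glucocorticoid-responsive genes, which steroid hormones induce, were the list with the highest median in 7d members. Tsc22d3, the leucine zipper protein GILZ, had 30 UMIs in 7d members, against 119 in Ctrl members, a ratio of 7.44 (4.81 to 11.2). Per1, a clock gene that glucocorticoids also induce, had 73 UMIs in 7d members, against 537 in Ctrl members, a ratio of 4.01 (3.099 to 5.13). Mt1, a metallothionein, had 3.44 (2.37 to 4.87), Txnip, which binds thioredoxin, 2.49 (2.14 to 2.88) and Anxa1 2.48 (1.96 to 3.11). Il1r2 is also on the list. Dusp1, a phosphatase, was level at 1.01 (0.934 to 1.099) and Cebpd, a transcription factor, was at 0.699 (0.49 to 0.967). Of 17 genes 8 were past 2-fold higher and 0 past 2-fold lower, with a median log2 ratio of 1.32, and between 0.95 and 1.32 over the alternatives, beside 0.27 over all genes. Of those past 2-fold higher, 2, Fkbp5 and Klf9, had 66.7% and 25% of their 7d UMIs in 1 cell. The other gated neutrophils had 5 of 9 higher and 0 lower, with a median of 1.05, beside 0.19 over all genes there. In granule neutrophils 1 of the list was higher and 2 lower, with a median of 0.05. Per1 had ratios of 6.696 (2.23 to 27.1) in the other gated neutrophils, from 19 and 4 UMIs, and Tsc22d3 0.352 (0.0365 to 1.77), from 2 and 8. At day 1 in members 2 of 17 were higher and 0 lower, with a median of 0.26; Tsc22d3 had 35 UMIs in 1d members, against 119 in Ctrl members, and the other, Mt2, had 95.6% of its UMIs in 1 cell.

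The immediate early and heat shock list joins transcription factors and phosphatases that signals induce within minutes with chaperones. Nr4a1, an orphan nuclear receptor, had 104 UMIs in 7d members, against 466 in Ctrl members, a ratio of 6.59 (5.28 to 8.17), and its relative Nr4a3 4.42 (3.53 to 5.497). Atf3 had 2.27 (1.93 to 2.65), Maff, a small MAF protein, 3.18 (2.37 to 4.21), and Fosb 2.39 (2.02 to 2.82). Jun was at 0.867 (0.722 to 1.03) and Zfp36, which degrades cytokine transcripts, at 1.004 (0.913 to 1.103), neither past 2-fold. Dusp2, a phosphatase of MAP kinases, was at 2.52, Nr4a2 at 3.98, Klf4 at 5.08 and the chaperone Hspa8 at 2.28, with 70%, 68.4%, 45.5% and 31.6% of their 7d UMIs in 1 cell. Of 38 genes of the list 12 were past 2-fold higher and 0 past 2-fold lower, 8 of the higher ones with no more than 20% of their 7d UMIs in 1 cell, with a median log2 ratio of 0.701, or 0.43 under TMM. The other gated neutrophils had 5 of 23 higher and 2 lower, with a median of 0.57. Granule neutrophils had 3 higher and 1 lower and a median of 0.11. Several other genes named by rule were higher: Vps37b, a subunit of the endosomal sorting complex, with 466 UMIs in 7d members, against 2127 in Ctrl members, a ratio of 6.47 (5.84 to 7.16), against 4.51 (2.69 to 7.87) in the other gated neutrophils and 2.06 in granule neutrophils. Myadm had 8.05 (5.501 to 11.5), Pi16 7.23 (4.88 to 10.5), Tbc1d10c, an inhibitor of Ras and calcineurin, 6.69 (3.71 to 11.4) and Add3, a protein of the spectrin skeleton, 6.61 (3.66 to 11.3). Fgl2, a secreted fibrinogen-like protein, had 5.27 (3.45 to 7.81) and Vsir, the checkpoint protein VISTA, 4.51 (3.24 to 6.14).

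The 10 named genes lower in 7d included Cxcl3 and Fpr1, given above, and Sod2. Sod2 had 26 UMIs in 7d members, against 4221 in Ctrl members, a ratio of 0.182 (0.119 to 0.267). Upp1, uridine phosphorylase, had 0.142 (0.0773 to 0.238), Larp4b, an RNA-binding protein, 0.119 (0.0435 to 0.259) and F10, coagulation factor X, 0.174 (0.0792 to 0.3304). Spp1, the secreted protein osteopontin, had 484 CPM in 7d members, against 2241 in Ctrl members, a ratio of 0.216 (0.175 to 0.263), and Thbs1, thrombospondin, 0.423 (0.394 to 0.454). Ikbke, a kinase of the interferon pathway, had 0 UMIs in 7d members, against 326 in Ctrl members, a ratio of at most 0.272 with the limit of 3 UMIs over the 7d members. Cd74, the invariant chain of antigen presentation, had a ratio of 0.0961 (0.0414 to 0.1896); without the cells marked as doublets it was 0.551. Of 40 interferon genes 0 were past 2-fold higher and 7 past 2-fold lower, with a median log2 ratio of −0.59, or −0.28 with 5 genes at 0 placed at the limit, and Ifi27l2a had 0.212 (0.152 to 0.288). Of 39 NF-kB genes 2 were past 2-fold higher and 8 past 2-fold lower. Their median was −0.35 and turned to 0.06 with thinning. Traf1 and Cflar, which hold back cell death, had 0.175 (0.06397 to 0.382) and 0.253 (0.154 to 0.392). Of 21 p53 targets 1 was past 2-fold higher and 4 past 2-fold lower; Cdkn1a had 0.368 (0.269 to 0.492), Mdm2 0.382 (0.261 to 0.541) and Plk3, a stress kinase, 2.42 (2.002 to 2.899).

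**Figure D5:**
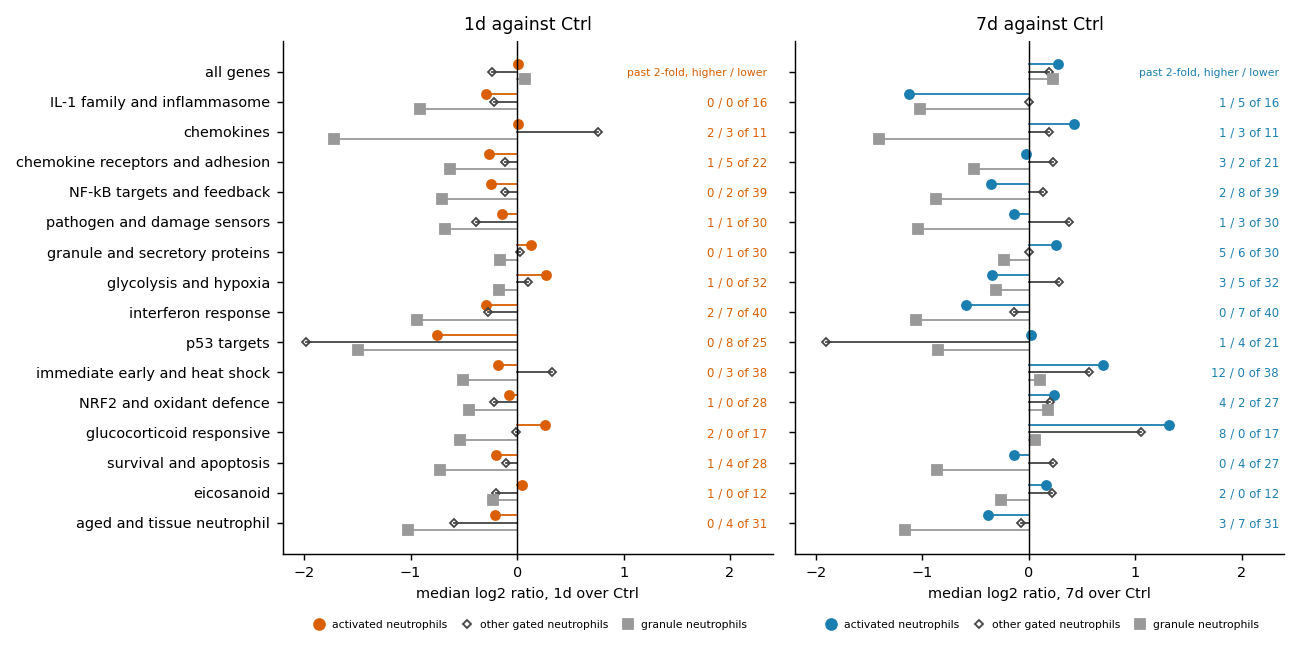
Median log2 ratio of each gene list, 1d over Ctrl (left) and 7d over Ctrl (right), in activated neutrophils (coloured circles), other gated neutrophils (open diamonds) and granule neutrophils (grey squares), with the numbers of list genes past 2-fold higher and lower in activated neutrophils at the right of each panel. The p53 targets lie lowest in 1d members at −0.76, and the glucocorticoid-responsive genes highest in 7d members at 1.32, where the other gated neutrophils are at 1.05 and granule neutrophils at 0.05.

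The lists left showed smaller or mixed differences in 7d members. Of the granule and secretory genes 5 of 30 were past 2-fold higher and 6 lower. Cebpe, the transcription factor of granule production, had 10 UMIs in 7d members, against 47 in Ctrl members, a ratio of 6.28 (2.83 to 12.6), and Padi4, the enzyme that citrullinates histones, 2.39 (1.39 to 3.87), with 22.2% of its 7d UMIs in 1 cell. The stefin genes Stfa1, Stfa2 and Stfa2l1 were at 0.1096, 0.1004 and 0.317, with all Stfa1 and Stfa2 UMIs of 7d in single cells. Of the glycolysis and hypoxia genes 3 of 32 were higher and 5 lower: Gpi1, glucose-6-phosphate isomerase, had 2.599 (2.09 to 3.19) and Slc2a3 2.33 (1.95 to 2.76), while Hilpda, a hypoxia-induced lipid droplet protein, had 0.4399 (0.311 to 0.605). Of the NRF2 and oxidant defence genes 4 of 27 were higher and 2 lower, among them Gpx1, glutathione peroxidase, at 2.66 (2.06 to 3.405). Of the genes of aged and tissue neutrophils 3 of 31 were higher and 7 lower, and Gadd45g, a stress-response protein, had 3.08 (2.51 to 3.74). Of the survival and apoptosis genes 0 of 27 were higher and 4 lower, and of the eicosanoid genes 2 of 12 and 0. In 1d members the granule, NRF2, aged, survival and eicosanoid lists had 0, 1, 0, 1 and 1 genes higher and 1, 0, 4, 4 and 0 lower, and the immediate early and heat shock list 0 and 3. Of the 30 pathogen and damage sensors in 7d members 1 was past 2-fold higher and 3 past 2-fold lower.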

How the data were processed

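Per the labels' protocols, jaw cells were digested with collagenase, frozen, thawed and captured with 10x 3′ v3.1 chemistry. The authors deposited raw UMI counts per gene and barcode, made with Cell Ranger 6.1.1 per the file headers; mm10 and Seurat are named in the submitters' processing notes. Members and gene lists were chosen with earlier results of these data known. UMIs were summed per library and cell set and scaled to 1000000 (CPM). Genes with at least 20 UMIs over both sets entered a comparison, with 95% Poisson-based intervals for ratios, a pseudocount of 0.5 UMI for log2 ratios and a floor of 3 UMIs for a set at 0. No test was run. Named were up to 15 genes higher and 10 lower against each other set, with the same direction in all 3 libraries. Higher genes had a UMI in at least 10% of members of each library, and lower genes in at least 10% of the other set. Between tertiles both directions used members. Also named were 10 higher and 10 lower for 1d and 7d against Ctrl. All were ranked by the nearer end of the interval. Each list gave up to 4 examples, and other genes are list members or marked as picked from their values. Doublets were marked per library as the highest Scrublet scores (scanpy 1.11.5) at a set rate of 0.8% per 1000 cells (7.11%, 4.10% and 5.20% of kept cells in Ctrl, 1d and 7d) and stayed in; 131, 6 and 5 members were marked. Alternatives changed the barcode filters, the S100 minimum, the activation minimum (1 or 4 UMIs), the Mmp8 comparison and the depth. Others changed the scaling (TMM from edgeR 4.0.16 in R 4.3.3), the UMI minimum, doublets and free RNA. Another left out cells with phagocyte RNA, by the 7 genes above with Ly6c2 among them. The granule neutrophil set and the activation tertiles were added after seeing the data. Scripts used Python 3.11.15, numpy 2.4.6, scipy 1.17.1 and pandas 2.3.3, and the ratio step was tested on simulated data.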

Additional observations from a re-analysis of the deposited data

Results flagged for a closer look

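The following genes of the gene lists stood more than 2-fold higher than Ctrl in activated neutrophils and more than 2-fold lower than Ctrl in granule neutrophils of the same libraries. With 1 library per group these differences between the cell sets were not tested. Il1r2, the decoy receptor of IL-1, had 530 UMIs in 7d members, against 5177 in Ctrl members, a ratio of 3.02 (2.76 to 3.31), while granule neutrophils had a ratio of 0.491 (0.458 to 0.526). The other gated neutrophils had a ratio of 2.42 (1.71 to 3.46). Casp6, an executioner caspase, had 11 UMIs in 1d members, against 23 in Ctrl members, a ratio of 3.44 (1.51 to 7.35), while granule neutrophils had a ratio of 0.463 (0.284 to 0.759). Cmpk2, an interferon-induced mitochondrial kinase, had 24 UMIs in 1d members, against 53 in Ctrl members, a ratio of 3.26 (1.92 to 5.37), while granule neutrophils had a ratio of 0.495 (0.379 to 0.649). Hpgds, a prostaglandin D synthase, had 17 UMIs in 1d members, against 59 in Ctrl members, a ratio of 2.07 (1.13 to 3.605), while granule neutrophils had a ratio of 0.316 (0.213 to 0.466). Mt2, a metallothionein, had 68 UMIs in 1d members, against 74 in Ctrl members, a ratio of 6.61 (4.69 to 9.32), while granule neutrophils had a ratio of 0.215 (0.155 to 0.297). Il1r2 was detected in 95.1% of 7d members, with 5.66% of its UMIs in the cell that held the most. Of the 1d UMIs of Mt2, 95.6% were in 1 cell, and of those of Casp6, Cmpk2 and Hpgds 27.3%, 25% and 23.5%.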

How the results depend on the processing

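No paired analysis was possible because each group has 1 library, and for the same reason no replicate could be left out. All alternatives named with the data processing above were run. In the mean over cells, genes were counted by their ratio alone, without the condition that the interval exclude 1. Those counts are therefore not like the others. The share of members among kept cells was 17.02 in Ctrl, 4.17 in 1d, 0.754 in 7d at an S100 minimum of 10%, 30.2 in Ctrl, 6.22 in 1d, 1.57 in 7d at 3%, 23.8 in Ctrl with stricter barcode filters, 19.7 in Ctrl, 4.72 in 1d with none, 20.2 in Ctrl, 4.23 in 1d, 0.908 in 7d without cells holding phagocyte RNA, as percent. Genes past 2-fold in members against other gated neutrophils numbered 273 in Ctrl, 146 in 1d, 84 in 7d with cells thinned to 1000 UMIs, 101 in 7d at an S100 minimum of 10%, 58 in 7d without the Mmp8 comparison, 162 in 1d, 110 in 7d without cells holding phagocyte RNA, 4356 in Ctrl, 1250 in 1d, 396 in 7d as a mean over cells, 70 in 7d with at least 100 UMIs per gene. Genes past 2-fold in members against granule neutrophils numbered 1317 in Ctrl, 1501 in 1d, 812 in 7d with cells thinned to 1000 UMIs, 1101 in Ctrl, 1431 in 1d, 553 in 7d without cells holding phagocyte RNA, 3975 in 7d as a mean over cells, 1819 in Ctrl with at least 100 UMIs per gene. Genes past 2-fold in the highest against the lowest tertile numbered 425 in Ctrl, 142 in 1d, 85 in 7d with cells thinned to 1000 UMIs, 495 in Ctrl, 175 in 1d, 97 in 7d at an S100 minimum of 10%, 3092 in Ctrl, 642 in 1d at 3%, 510 in Ctrl, 223 in 1d, 148 in 7d without called doublets, 1039 in Ctrl, 101 in 7d without cells holding phagocyte RNA, 409 in Ctrl, 111 in 1d, 59 in 7d with at least 100 UMIs per gene. Genes past 2-fold against Ctrl in members numbered 186 in 1d, 501 in 7d with cells thinned to 1000 UMIs, 615 in 1d at 3%, 1163 in 1d, 3008 in 7d as a mean over cells, 166 in 1d with at least 100 UMIs per gene. Directions turned for several named genes, as log2 ratios. Against other gated neutrophils, R3hdm4 in 1d was 0.032 without the Mmp8 comparison and 0.44 without cells holding phagocyte RNA, Wfdc17 in 1d −0.40 when thinned, and Adpgk and Anxa1 in 7d 0.060 and 0.26 without the Mmp8 comparison. Between tertiles of 7d, Hsp90aa1 and Hspa8 were 0.077 and 0.13 without cells holding phagocyte RNA, and Naca 0.51, or 0.65 without called doublets. Against Ctrl, Klf4 in 1d was 0.054 at an S100 minimum of 10%, Mt2 in 1d −1.10 without called doublets, Klf4 in 7d −0.70 without called doublets and −1.04 without cells holding phagocyte RNA, and Ccl5 in 7d −2.995 at an S100 minimum of 10%, −1.08 without called doublets and −3.09 without cells holding phagocyte RNA. Thinning and the higher UMI minimum leave fewer UMIs or genes, and the mean over cells drops the interval condition. The cause of these shifts was otherwise not tested. The 81 members of 7d and the 58 other gated neutrophils limit depth most. A value from 1 pool of mice carries no spread between animals.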

Other observations

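Cells with 3 to 4% of UMIs from S100a8 and S100a9, outside the members, numbered 286 in Ctrl, 24 in 1d and 7 in 7d. Their Il1b level was 2468, 1809.5 and 3909 CPM, their Csf3r level 342, 265 and 1599, and their level of the B cell gene Cd79a 148, 95.2 and 0. Dendritic cell markers summed to 822, 468 and 112 CPM in Ctrl, 1d and 7d members. B cell markers summed to 157, 223 and 34.2 in members, against 6885, 12658 and 4785 in B cells, which were chosen by Cd79a and Cd79b of that list. Among thinned members, Cxcl3 was detected in 46.8%, 26.5% and 5.26% of those with Cxcl2 in Ctrl, 1d and 7d.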
